A study of Mus musculus with 10 samples.

Results

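The organic anion and cation transporters considered here were 9 genes picked by symbol for carrying organic anions, organic cations, urate or drugs across the membranes of the kidney tubule: Slc22a2, Slc22a6, Slc22a7, Slc22a8, Slc22a12, Slc22a18, Slco1a1, Slc47a1 and Abcc2. All 9 were among the 13299 genes of the expression table, and all 9 entered the test, which covered 13236 genes. The mRNA of whole kidneys from old mice, aged 1.5 years, was read in 5 samples with the genotype Rragc S74N/+ and 5 samples with the genotype Rragc +/+. RagC, the product of Rragc, is a GTPase that tells the growth kinase mTORC1 that nutrients are at hand, and S74N is an active form, carried by the mice in the germline, in all tissues, on 1 of the 2 alleles of a line made by CRISPR editing. No treatment was named for either group, and the labels gave neither the sex nor the litter of the mice. The Y-linked transcript Ddx3y was between 170 and 256 normalized counts in all 10 kidneys, and Xist, the X-inactivation transcript, had no row in the table.

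Cells of the proximal tubule clear drugs, toxins and waste products from the blood in 2 steps. Transporters of the blood-facing (basolateral) membrane take up organic anions in exchange for dicarboxylates and organic cations along the membrane potential, and transporters of the urine-facing (apical) membrane pass them into the urine or, for urate, take them back. The supply of both steps is of practical interest because it sets how much of many drugs reaches the tubule cell and how much leaves it.

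The promoters of 3 of the genes are shown first, as RefSeq gives them on build GRCm38.p6, each from 250 bases before to 50 bases after the annotated start. The reads themselves had been aligned to another build, GRCm39. RefSeq promoters were matched for 7 of the 9 transporters, and Slc22a7 and Slc47a1 had no match. Slc22a6 and Slc22a8 are shown because they are neighbours on chromosome 19 and encode the main pair of organic anion uptake carriers, and Abcc2, on the same chromosome, because it was the member that passed the test. All 3 are given 5′ to 3′ on the plus strand, Slc22a6 from chr19:8617746-8618045, Slc22a8 from chr19:8592932-8593231 and Abcc2 from chr19:43782058-43782357. The capitals in Abcc2 mark a match to TGACNNNGC, the core of the antioxidant response element.
Slc22a6: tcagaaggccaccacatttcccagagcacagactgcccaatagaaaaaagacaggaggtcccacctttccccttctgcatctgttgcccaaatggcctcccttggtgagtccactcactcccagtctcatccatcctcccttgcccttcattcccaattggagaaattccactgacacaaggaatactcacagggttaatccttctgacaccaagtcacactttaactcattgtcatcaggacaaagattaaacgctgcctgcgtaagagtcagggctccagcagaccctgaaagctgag
Slc22a8: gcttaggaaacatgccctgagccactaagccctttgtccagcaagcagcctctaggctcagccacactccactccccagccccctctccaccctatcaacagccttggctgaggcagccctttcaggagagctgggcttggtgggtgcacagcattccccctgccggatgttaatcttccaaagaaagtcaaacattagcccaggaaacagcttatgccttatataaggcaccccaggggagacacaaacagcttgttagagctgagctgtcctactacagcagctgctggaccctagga
Abcc2: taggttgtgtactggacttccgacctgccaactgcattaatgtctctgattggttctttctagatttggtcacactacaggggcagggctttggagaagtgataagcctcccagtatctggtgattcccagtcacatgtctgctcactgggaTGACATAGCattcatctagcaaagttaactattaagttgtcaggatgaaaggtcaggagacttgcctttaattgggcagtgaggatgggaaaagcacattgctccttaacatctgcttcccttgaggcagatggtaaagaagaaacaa

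TGACNNNGC was searched on both strands of the 7 promoters and was found in Abcc2 alone, as TGACATAGC beginning 98 bases before the start, and in 12.4% of all 32851 RefSeq promoters. CACGTG, likewise searched on both strands, the E-box read by factors such as TFEB, was in 0 of the 7 promoters and in 7.15% of all promoters. These matches are descriptions of the letters and do not show that a factor binds there.

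Each library held between 4488493 and 5797251 reads assigned to genes, and the values below are normalized read counts, that is, reads per gene divided by a size factor of the sample. Libraries were made from the 3′ ends of polyadenylated mRNA, so counts were not divided by transcript length and read nothing of the S74N codon. Mitochondrial transcripts took 33.8% to 38.0% of the normalized counts. Kidney proximal tubule genes were abundant in all 10 samples: the sum of 12 markers was 48090 to 61370 in Rragc +/+ and 47700 to 62570 in Rragc S74N/+ kidneys. Over all genes, Rragc S74N/+ replicate 1 stood apart from its group: the chi-square per degree of freedom between its reads and those of each other Rragc S74N/+ kidney was 26.6 to 31.7, against 4.2 to 8.49 among the other 4 and 5.5 to 12.9 among the Rragc +/+ kidneys. Because whole tissue was measured, fewer proximal tubule cells and less mRNA per cell cannot be told apart in any value given here.

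Among the 9 transporters, Abcc2 was higher in Rragc S74N/+ kidneys past the threshold, which was an adjusted p under 0.05 by limma over all genes tested, and none was lower past it. The 1 member called of 9 stands beside 6.03% of all genes called, 3.45% higher and 2.58% lower. Equal totals per sample instead of the authors' size factors gave 718 genes higher and 225 lower, against 457 and 341. In Abcc2 and Slc47a1 the values of the 2 groups did not overlap, which was the case for 8.16% of all genes tested. Without adjustment, 5 of the 9 members had a limma p under 0.05, namely Slc22a2 and Abcc2, which were higher, and Slc22a12, Slc22a18 and Slc47a1, which were lower, against 25.4% of all genes. edgeR and DESeq2 on the recovered reads also called 0 members lower. Of the 9, 4 fold changes were above 0 and 5 were below, with a median log2 fold change of -0.08 for the members and -0.013 for all genes.

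**Figure D1:**
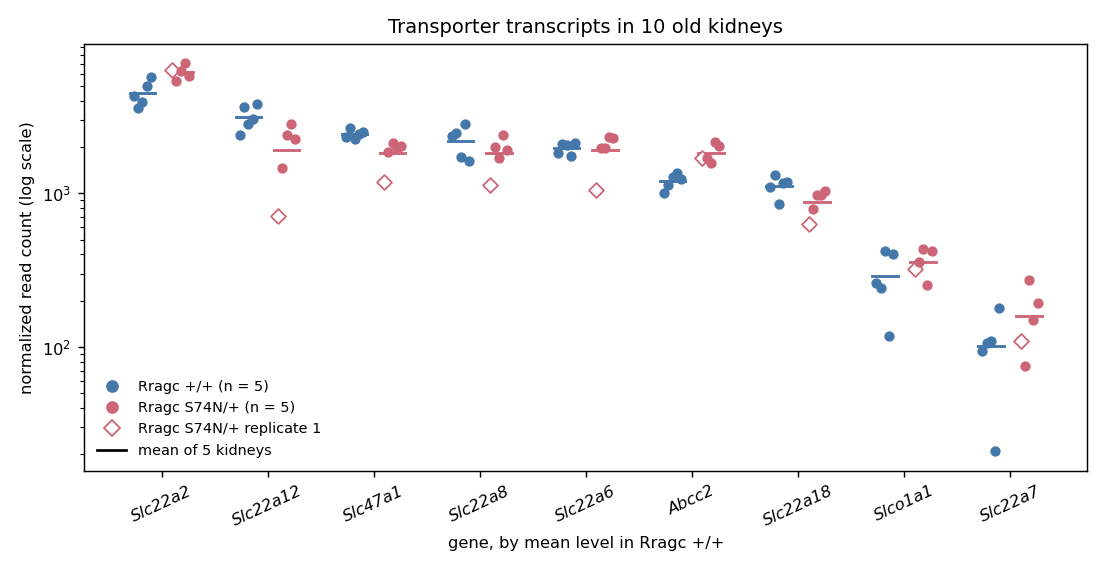
Normalized read count (log axis) of the 9 transporters in each of the 10 kidneys, ordered by mean level in Rragc +/+; each point is 1 kidney, bars are means of 5, and the open diamond is Rragc S74N/+ replicate 1. Abcc2 points of the 2 genotypes do not overlap (1006 to 1364 and 1581 to 2146), and the diamond is the lowest Rragc S74N/+ point in 5 of the 9 genes.

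The first group is the uptake carriers, most of them basolateral. Slc22a2 encodes OCT2, the main organic cation carrier of that membrane and the entry route of drugs such as metformin and cisplatin. It was the most abundant member, with 4321, 3609, 3962, 5019 and 5743 normalized counts in Rragc +/+ replicates 1 to 5. The Rragc S74N/+ kidneys held 6362, 5390, 6236, 7017 and 5779. Of the 5 Rragc S74N/+ kidneys, 4 lay above every Rragc +/+ kidney, and replicate 2 alone fell inside their range. Rragc +/+ kidneys averaged 4530 ± 855 (SD, n = 5) and Rragc S74N/+ kidneys 6157 ± 616 (SD, n = 5), a log2 fold change of 0.46 ± 0.13 (SE; 95% confidence interval 0.17 to 0.74). It missed the threshold, with an adjusted p of 0.0535 by limma and an unadjusted exact two-sided permutation p of 0.0159. Its call turned on the settings: it passed in 6 of 11 other settings, with adjusted p between 0.0156 and 0.119, and when either Rragc S74N/+ replicate 1 (adjusted p = 0.0375, limma) or Rragc +/+ replicate 5 (adjusted p = 0.0252, limma) was left out.

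Slc22a6 encodes OAT1, which takes up para-aminohippurate and many anionic drugs in exchange for dicarboxylates. Its normalized counts were 1830, 2090, 2065, 1744 and 2133 in Rragc +/+ and 1057, 1962, 1979, 2316 and 2304 in Rragc S74N/+ replicates 1 to 5. A single Rragc S74N/+ kidney, replicate 1, was far below the others, and the remaining 4 lay inside or above the Rragc +/+ range. Rragc +/+ kidneys averaged 1972 ± 174 (SD, n = 5) and Rragc S74N/+ kidneys 1923 ± 513 (SD, n = 5), and the log2 fold change of -0.08 ± 0.18 (SE; interval -0.46 to 0.29) had an adjusted p of 0.806 by limma. Without replicate 1 it turned to 0.12, with an adjusted p of 0.519 by limma, so no direction can be given for this gene.

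Slc22a8 encodes OAT3, the partner of OAT1 at the same membrane with a broader range of substrates. Rragc +/+ kidneys held 2348, 2479, 1714, 2824 and 1614 normalized counts, and Rragc S74N/+ kidneys 1136, 1989, 1701, 2393 and 1916. The groups overlapped, and replicate 1 was again the lowest Rragc S74N/+ value. The log2 fold change was -0.27 ± 0.19 (SE; interval -0.68 to 0.13), with an adjusted p of 0.385 by limma, and -0.11 without that kidney. The ratio of Slc22a8 to Slc22a6 counts averaged 1.14 ± 0.352 (SD, n = 5) without the allele and 0.963 ± 0.11 (SD, n = 5) with it. These ratios ranged from 0.757 to 1.62 and from 0.832 to 1.08, so the Rragc S74N/+ range lay inside the Rragc +/+ range.

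Slc22a7, which encodes OAT2, a carrier of organic anions and cyclic nucleotides whose side of the tubule cell differs between species, was the least abundant member. Its counts were 93.97, 106.1, 109.4, 20.96 and 179.1 in Rragc +/+ and 110.0, 75.6, 272.9, 149.7 and 192.4 in Rragc S74N/+ kidneys. Values were spread widely in both groups, with Rragc +/+ replicate 4 far below the rest. The log2 fold change of 0.79 ± 0.44 (SE; interval -0.15 to 1.73) had the largest point value on the higher side and the widest interval of the 9, with an adjusted p of 0.279 by limma. It was 0.30 without Rragc +/+ replicate 4 (adjusted p = 0.591, limma).

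The second group is the carriers of the apical membrane. Abcc2 encodes MRP2, an ATP-driven pump that exports glutathione, glucuronide and sulfate conjugates into urine and bile. Its normalized counts were 1006, 1132, 1283, 1364 and 1237 in Rragc +/+ kidneys. In Rragc S74N/+ kidneys they were 1693, 1707, 1581, 2146 and 2029. Every Rragc S74N/+ kidney was above every Rragc +/+ kidney, and replicate 1, low for other members, was not the lowest of its group here. The mean rose from 1204 ± 139 (SD, n = 5) to 1831 ± 242 (SD, n = 5), a fold change of 1.52 and a log2 fold change of 0.60 ± 0.12 (SE; interval 0.35 to 0.85). The adjusted p was 0.00896 by limma, and the exact two-sided permutation p was 0.00794, the smallest that the 252 allocations of 10 samples to 2 groups of 5 allow. The call held in each of the 10 fits that left out a sample (adjusted p 0.00229 to 0.0325, limma) and in 11 of 11 other settings (0.000145 to 0.0452). The titles of the samples carry numbers that fall into a lower range of 6 samples and a higher range of 4, and the log2 difference in Abcc2 was 0.55 within the lower and 0.68 within the higher range.

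Slc47a1 encodes MATE1, the proton-coupled exchanger that passes organic cations into the urine after uptake by OCT2. Rragc +/+ kidneys held 2338, 2680, 2263, 2436 and 2522 normalized counts. Rragc S74N/+ kidneys held 1184, 1868, 2138, 1969 and 2047, all of them below the lowest Rragc +/+ kidney. Rragc +/+ kidneys averaged 2448 ± 163 (SD, n = 5) and Rragc S74N/+ kidneys 1841 ± 380 (SD, n = 5), with a log2 fold change of -0.44 ± 0.14 (SE; interval -0.74 to -0.13). The fit across genes did not pass the threshold (adjusted p = 0.0772, limma), and it passed in none of the 10 fits that left out a sample or the 11 other settings, while the exact permutation p, unadjusted, was 0.00794. Without Rragc S74N/+ replicate 1 the log2 fold change was -0.29 (adjusted p = 0.0686, limma), and the coefficient of variation of the Rragc S74N/+ group dropped from 20.7% to 5.72%, beside 6.64% in Rragc +/+.

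Slc22a12 encodes URAT1, which takes urate back from the urine. Its counts were 2408, 3644, 2812, 3063 and 3836 in Rragc +/+ kidneys and 712.5, 1456, 2412, 2815 and 2251 in Rragc S74N/+ kidneys. Of the 5 Rragc S74N/+ kidneys, 3 were below every Rragc +/+ kidney, and the other 2 were inside their range. Rragc +/+ kidneys averaged 3152 ± 589 (SD, n = 5) and Rragc S74N/+ kidneys 1929 ± 841 (SD, n = 5). The log2 fold change of -0.84 ± 0.28 (SE; interval -1.43 to -0.24) was the lowest of the 9 and did not pass the threshold (adjusted p = 0.0837 by limma; exact two-sided permutation p = 0.0397, unadjusted). It was -0.52 without Rragc S74N/+ replicate 1 (adjusted p = 0.0525, limma), and -1.10 and -0.45 within the lower and the higher range of sample numbers.

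Slco1a1 encodes an organic anion transporting polypeptide of the apical membrane, which carries steroid sulfates and is higher in kidneys of male than of female mice. Its counts were 261.8, 240.3, 418.5, 117.9 and 401.9 in Rragc +/+ and 322.7, 356.7, 433.9, 251.6 and 420.7 in Rragc S74N/+ kidneys. Groups overlapped over most of their range, and the log2 fold change was 0.41 ± 0.27 (SE; interval -0.16 to 0.99) with an adjusted p of 0.357 by limma. Without Rragc +/+ replicate 4, its lowest value, the log2 fold change was 0.13. Slco1a1 has close paralogs in the mouse, and reads that fit more than 1 of them could have been dropped, so its level is uncertain. Of 9 other kidney genes known to be higher in male mice, 1 passed the threshold (Cyp2j13, higher), and their sum was 87270 to 126000 in Rragc +/+ and 93700 to 129200 in Rragc S74N/+ kidneys. Kap made up most of that sum, with means of 94200 and 103000. Among the Rragc S74N/+ kidneys, replicate 1 was the lowest for each of the 9 genes except Acsm3. Cyp4a12a, for example, was 405 in it against 1590 to 2160 in the others.

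Slc22a18, an imprinted member of the same family whose substrates are less well known, completes the list. It had 1099, 1322, 848.6, 1161 and 1178 normalized counts in Rragc +/+ and 635.1, 789.0, 978.8, 979.8 and 1038 in Rragc S74N/+ kidneys. Of the Rragc S74N/+ kidneys, 2 were below every Rragc +/+ kidney. The log2 fold change of -0.35 ± 0.15 (SE; interval -0.67 to -0.04) had an adjusted p of 0.152 by limma and was -0.24 without replicate 1.

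**Figure D2:**
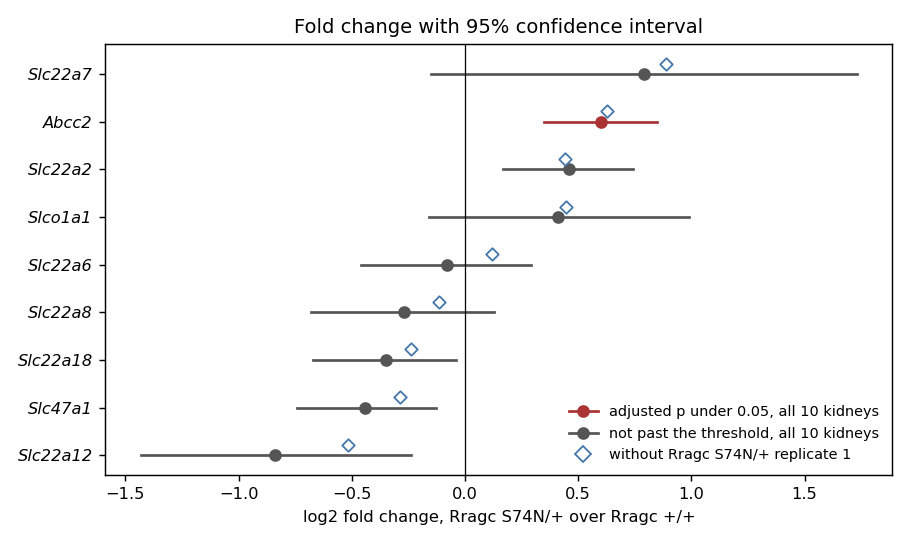
Log2 fold change of the 9 transporters, Rragc S74N/+ over Rragc +/+, with the 95% confidence interval of the limma fit over all 10 kidneys; open diamonds give the value without Rragc S74N/+ replicate 1. Abcc2, at 0.60, is the only gene with an adjusted p under 0.05, and the diamond of Slc22a6 lies on the other side of 0, at 0.12.

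By mean count in Rragc +/+ kidneys the order of the levels was Slc22a2, Slc22a12, Slc47a1, Slc22a8, Slc22a6, Abcc2, Slc22a18, Slco1a1 and Slc22a7. Neighbours overlapped in range except at 2 steps, from Slc22a6 to Abcc2 and from Slc22a18 to Slco1a1, so the ranges did not separate neighbours among the 5 most abundant genes. Within kidneys, Slc22a12 was above Slc47a1 in 5 of 5 Rragc +/+ and 3 of 5 Rragc S74N/+ kidneys, and Slc22a2 above Slc22a12 in 4 of 5 and 5 of 5. Slc22a6 was above Abcc2 in 5 of 5 Rragc +/+ kidneys and in 4 of 5 Rragc S74N/+ kidneys. Counts of 3′ reads were taken as they are, with no correction for length, for these comparisons between genes.

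OCT2 and MATE1 act in sequence on the same cations, and the log2 fold changes of their genes were 0.46 and -0.44, neither of them past the threshold. The ratio of Slc22a2 to Slc47a1 counts was 1.85, 1.35, 1.75, 2.06 and 2.28 in Rragc +/+ kidneys. In Rragc S74N/+ kidneys it was 5.37, 2.89, 2.92, 3.56 and 2.82, above every Rragc +/+ value. Ratios averaged 1.86 ± 0.35 (SD, n = 5) without the allele and 3.51 ± 1.08 (SD, n = 5) with it. The ratio of Abcc2 to Slc47a1, the 2 members whose groups did not overlap, was 0.494 ± 0.0688 (SD, n = 5; range 0.422 to 0.567) and 1.03 ± 0.256 (SD, n = 5; range 0.739 to 1.43). The groups of Abcc2 and Slc47a1 lay apart in opposite directions, so their ratio had to separate the genotypes and adds no further result. The highest ratios, 5.37 and 1.43, belong to Rragc S74N/+ replicate 1, whose Slc47a1 count of 1184 was far below the others. Both pairs were formed with the values known, so these ratios are descriptions with no test.

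**Figure D3:**
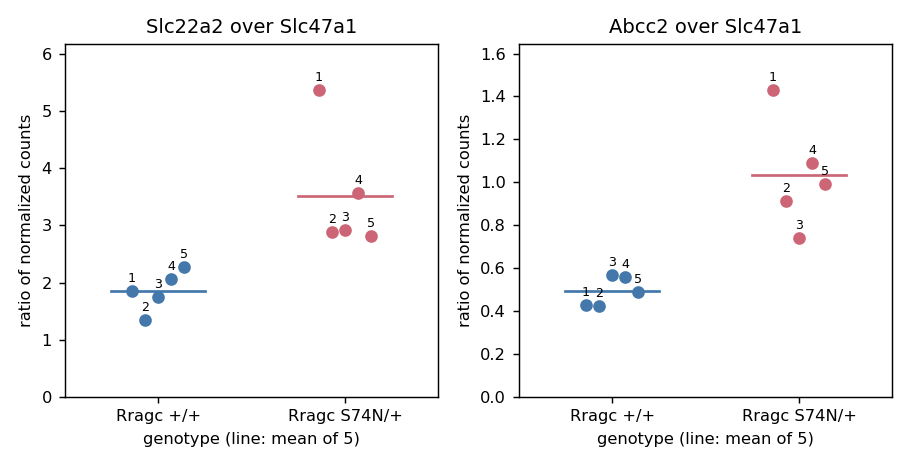
Ratio of normalized counts of Slc22a2 to Slc47a1 (left) and of Abcc2 to Slc47a1 (right) in each kidney; points carry replicate numbers, lines are means of 5, and both axes start at 0. All Rragc S74N/+ ratios lie above all Rragc +/+ ratios in both panels, and replicate 1 is highest, at 5.37 and 1.43.

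Rragc S74N/+ replicate 1, which stood apart over all genes as given above, was the lowest of its group for 5 of the 9 members, Slc22a6, Slc22a8, Slc22a12, Slc22a18 and Slc47a1, and the highest for 0. The 9 members summed to 13212 normalized counts in it, or 0.287% of the sample, against 15592 to 20037 in the other Rragc S74N/+ and 15475 to 18844 in the Rragc +/+ kidneys. In the same kidney the sum of the 12 proximal tubule markers was 47700, the lowest of all 10 but close to the lowest Rragc +/+ sum, 48090. Slc34a1 and Miox, the largest parts of it, were 16200 and 13500, inside the range of the other Rragc S74N/+ kidneys. Lrp2, Slc5a2, Slc5a12 and Gatm were also inside that range. For the remaining markers replicate 1 was below all other Rragc S74N/+ kidneys. Cubn was 248 against 469 to 493, Lap3 622 against 1010 to 1420, and Slc7a13 788 against 1550 to 2510. Aqp1 was 2390 against 3200 to 4910, Slc27a2 4370 against 4530 to 6900, and Cyp4b1 1660 against 1770 to 2740. The sum of 4 fibroblast markers was 1359, the highest. Dcn alone carried that sum, at 818 against 146 to 327 in the other Rragc S74N/+ kidneys, while Col1a1, Col3a1 and Pdgfrb lay inside the range of the others. It held 4930328 reads, inside the range of the other libraries. The part of these values in the transporter differences was not tested.

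Other transporters of organic ions and drugs were read from the same fit, as a list of which 35 tested genes are reported. Of these, 2 were higher and 2 lower past the threshold, beside 3.45% higher and 2.58% lower of all genes tested. An unadjusted limma p under 0.05 was found for 10 of the 35, beside 25.4% of all genes. The median log2 fold change of the 35 was 0.09. Slc51a, the alpha subunit of the organic solute transporter of bile acids and steroids, rose from 333 ± 26.1 (SD, n = 5) to 549 ± 61.4 (SD, n = 5) normalized counts, a log2 fold change of 0.71 ± 0.11 (SE; adjusted p = 0.0020, limma), with no overlap between the groups. Slc22a21, a carnitine carrier, rose from 14.3 ± 4.67 (SD, n = 5) to 36.7 ± 19.4 (SD, n = 5), at low counts (log2 fold change 1.22, adjusted p = 0.0394, limma). Its groups overlapped. Rragc S74N/+ replicate 1 held 69.0, against 21.4 to 38.7 in the rest of its group and 9.95 to 22.1 in Rragc +/+. Slc22a23, an orphan family member, fell from 166 to 110 (log2 fold change -0.59, adjusted p = 0.0329, limma). Slc22a29 fell from 18.4 to 5.66 (log2 fold change -1.67, adjusted p = 0.0385, limma), at low counts and within a mouse gene cluster of near-identical copies, so its value is uncertain. The most abundant of those that did not pass were Abcg2, the urate and drug efflux pump, with a log2 fold change of 0.23 (adjusted p = 0.276, limma), Slc17a3, with 0.27 (adjusted p = 0.230, limma), and Slco3a1, with 0.29 (adjusted p = 0.181, limma).

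**Figure D4:**
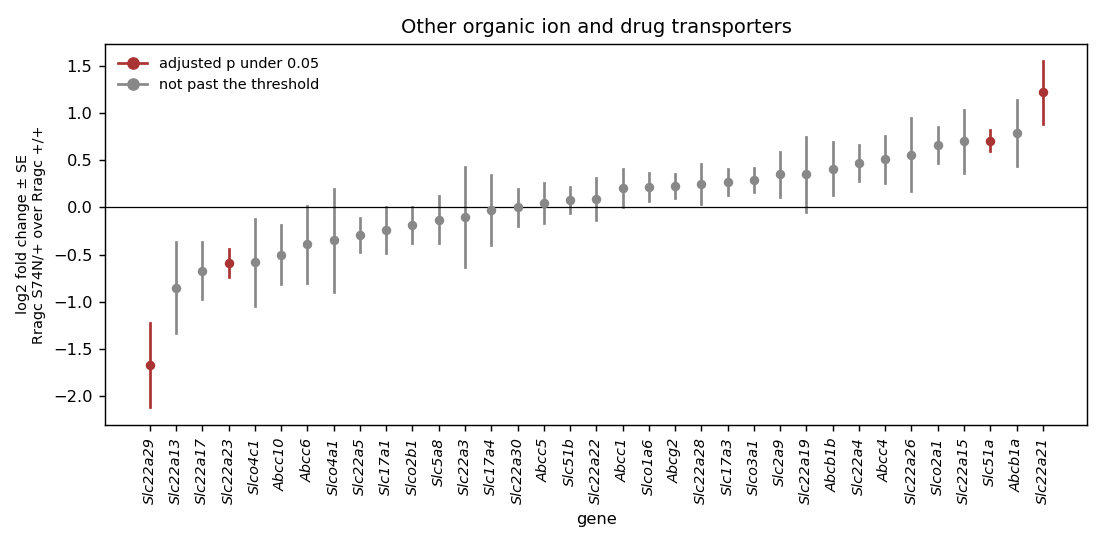
Log2 fold change with its SE, Rragc S74N/+ over Rragc +/+ (n = 5 and 5), of 35 other transporters, ordered by value. The 4 genes past the threshold are red: Slc22a29 and Slc22a23 lower, and Slc51a and Slc22a21 higher.

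Uptake of organic anions depends on dicarboxylates held in the cell by sodium-coupled carriers and, in turn, on the sodium pump. Of the 8 tested genes reported here that bear on this supply, on sodium-proton exchange or on the apical scaffold, 0 passed the threshold in either direction (limma), and 0 had an unadjusted p under 0.05. Atp1b1, a beta subunit of the sodium pump, had -0.27 (adjusted p = 0.213, limma), Pdzk1, the scaffold of several apical carriers, -0.12 (adjusted p = 0.503, limma), and Slc13a3, the basolateral dicarboxylate carrier, 0.21 (adjusted p = 0.235, limma).

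Of the 7 tested transcription factors reported here that are known to act on transporter genes, 0 passed the threshold in either direction by limma, and 1 had an unadjusted p under 0.05. Hnf4a, a driver of proximal tubule genes, averaged 926 ± 107 (SD, n = 5) without the allele and 682 ± 194 (SD, n = 5) with it (log2 fold change -0.49 ± 0.19, SE; adjusted p = 0.117, limma). Ppara had -0.19 (adjusted p = 0.393, limma), and Nfe2l2, which encodes the factor that reads the antioxidant response element, had 0.04 (adjusted p = 0.882, limma).

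Marker lists of kidney cell types give the setting of these values, and the calls in them stand beside 6.03% of all genes called. Of the 12 proximal tubule markers 0 were higher and 2 lower past the threshold, Slc5a2, the glucose carrier of the early proximal tubule, with a log2 fold change of -1.05, and Gatm, an enzyme of creatine synthesis, with -1.03. Leukocyte markers, 7 tested, summed to 365.1 to 505.4 in Rragc +/+ and 625.2 to 802.5 in Rragc S74N/+ kidneys with 2 higher (Cd3g and Cd79a had no row). Of 6 tubule injury markers 3 were higher (sums 2169 to 2574 and 1789 to 3046). They were Havcr1 (means 4.24 and 33.6), Vcam1 (79.0 and 186) and Lcn2 (11.3 and 89.6, with 307 in Rragc S74N/+ replicate 1). Clu, the largest part of the injury sums, averaged 1830 and 1510 and was not called. The 3 distal convoluted tubule markers were all lower, with sums of 3730 to 4540 and 857.8 to 1463. Past the threshold were also 1 of 5 podocyte markers and 1 of 4 fibroblast markers, both higher, 1 of 4 thick ascending limb markers and 1 of 5 endothelial markers, both lower, and of 7 collecting duct markers 1 in each direction. None of the 3 hepatocyte markers in the table, the 4 Y-linked transcripts or the 3 kidney genes higher in female mice passed the threshold by limma; 1, 0 and 1 of them had an unadjusted p under 0.05. The part of these shifts in the transporter differences was not tested.

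By the root mean square distance between scaled log2 values over the 10 samples, the genes most like Abcc2 were Zfp644 (0.23), Cdh11 (0.279) and Hdlbp (0.28). Zfp644, a zinc finger gene, had 202 normalized counts in Rragc +/+ and 312 in Rragc S74N/+ kidneys. Cdh11, a cadherin of mesenchymal cells, had 70.6 and 125, and Hdlbp, an RNA-binding protein, had 678 and 884. All 3 were higher past the threshold, with adjusted p of 0.0142, 0.0129 and 0.0271 by limma, and a likeness over samples that also differ by genotype is a description.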

How the data were processed

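RNA of whole kidney was sequenced from 5 Rragc S74N/+ and 5 Rragc +/+ samples with an oligo-dT primed kit that reads 3′ ends on the sense strand, from 300 ng of total RNA per the labels. Per the submitters' processing notes and the methods of the study, reads were checked with FastQC 0.11.7, aligned to GRCm39 with TopHat2 2.0.10, Bowtie 1.0.0 and SAMtools 0.1.19, and counted per gene with HTSeq 0.6.1 on a GENCODE annotation. The deposited values are signal values of the normalized count type: the authors divided the reads of each gene by a size factor per sample, and replicates were not pooled. A rule for dropping low genes from the table was not given in the sources used here (lowest mean of a gene 4.37), and genes that are not in the table were not analysed here.

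Genes with at least 5 normalized counts in at least 5 samples were tested (13236, with 63 left out). The log2 values, with a pseudocount of 1, entered a linear model on genotype alone in limma 3.58.1 (R 4.3.3), with an eBayes variance trend, two-sided tests and Benjamini-Hochberg adjustment over all genes tested at 0.05. Fold changes are on this scale, which understates changes of low genes. Whole reads were recovered in all 10 columns (100% of values within 0.01 of a whole number) and used for edgeR 4.0.16 and DESeq2 1.42.0 as alternatives. Single values were also tested with exact permutation tests over samples, unadjusted. The fit was also run on simulated counts. These had the same relative spread between samples for every gene and no sample that stood apart. They therefore do not test the fit with a sample like Rragc S74N/+ replicate 1, and no result here rests on them. Within-group pairs of samples differed by more than counting noise (chi-square per degree of freedom at least 4.2), and the labels do not tell more than that they are separate samples, so p-values measure the spread between these samples.

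The 9 members and all lists (other transporters, coupling and scaffold genes, regulators, cell type and sex markers) were chosen with earlier results of these data known. All members are named with their values, and so are, of the first 3 lists, the genes past the threshold and up to 3 of the most abundant others, and the 3 genes most like the member with the smallest p. Replicate numbers follow accession order. Other pseudocounts, filters, scalings and fits, a term for the range of the sample number in the titles, which the labels do not call a batch, and leaving out each sample were the alternatives. Some genes of these lists are not reported here, and the counts of the first 3 lists leave them out.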

Additional observations from a re-analysis of the deposited data

Results flagged for a closer look

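Both results below were marked because 1 sample lay far from the other 4 of its group by Dixon's criterion (a gap to the nearest sample above 0.71 of the range of 5). Slc22a6 was 1057 normalized counts in Rragc S74N/+ replicate 1, with the nearest sample at 1962 and a gap of 0.719 of the range. Slc47a1 was 1184 in the same kidney, with the nearest sample at 1868 and a gap of 0.717. Of 18 groups searched 2 were found, and chance would give 0.9.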

How the results depend on the processing

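Abcc2 passed the threshold in all 21 alternative fits, with a log2 fold change of 0.54 to 0.68. The members past the threshold numbered 2 instead of 1 with a mean of at least 50 normalized counts, equal totals, equal 75th percentiles, DESeq2, robust eBayes and the term for the range of title numbers, and 1 to 2 when samples were left out in turn; the second was Slc22a2 each time. Slc22a6 was between -0.17 and 0.12 with samples left out, and reversed to 0.12 without Rragc S74N/+ replicate 1. No other member changed direction. Of all genes, 798 passed, against 1354 with DESeq2 (792 shared), 834 with edgeR (771 shared), 391 without the eBayes trend, 187 at an adjusted p under 0.01, and 311 to 902 with samples left out. The count was lowest without Rragc +/+ replicate 2 (311), replicate 1 (368) or replicate 4 (383), or without Rragc S74N/+ replicate 5 (371). The causes were not tested. Equal totals moved the median of all genes from -0.013 to 0.064. No paired analysis was possible because the labels give no litter or other link between single samples of the 2 groups.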

Other observations

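The 2 subunits of the organic solute transporter, which work as a pair, were unlike in these kidneys. Slc51a passed the threshold, as given above, while Slc51b averaged 261 ± 49.6 (SD, n = 5) normalized counts without the S74N allele and 273 ± 34 (SD, n = 5) with it, a log2 fold change of 0.08 ± 0.14 (SE; adjusted p = 0.776, limma). The difference between the subunits was not tested, and the pair was chosen after its values were seen.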
